A study of Mus musculus with 121 samples.

Results

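The comparison described here is the change in RNA between 24 h and 48 h of auxin in YY1-AID cells, across all genes. It takes 6 of the 121 samples of the study, the 3 RNA-seq libraries collected after 48 h and the 3 collected after 24 h, and 15157 of the 55351 gene symbols listed had enough counts to be tested. The study removed the transcription factor YY1 from mouse erythroid cells and measured chromatin binding, chromatin contacts and RNA. Auxin was added to YY1-AID cells, a subline of G1E-ER4 cells whose YY1 is fused to a degron, so that adding auxin causes the protein to be destroyed. G1E-ER4 is an erythroblast line derived from mouse embryonic stem cells that lack their own GATA1 and carry a hormone-activated form of it. Both groups were this same subline, labelled asynchronous, both were in auxin, and the labels separate them by the length of treatment alone. The RNA time course held 0, 4, 24 and 48 h of auxin with 3 libraries each and no untreated culture at 24 or 48 h, so the length of auxin treatment and the time in culture cannot be told apart. The labels number the replicates without saying whether they were separate cultures, and the p-values then measure the spread between these libraries, which may be partly technical.

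YY1 is a zinc finger protein that binds promoters and enhancers of many genes. The step between 24 and 48 h asks which RNAs went on changing, began to change or turned back on the second day of auxin. Erythroid and megakaryocytic cells come from a shared progenitor, and both use GATA1, TAL1 and NFE2, with RUNX1 and FLI1 favouring the megakaryocyte program. Cholesterol synthesis is controlled as a unit by the factor SREBP2, which is activated when sterols are scarce, and the genes of DNA replication are switched on together by E2F factors as cells enter S phase.

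Total counts per library were 25.1 to 26.2 M. Levels are given as CPM, counts scaled to the size of the library. The first principal component of log2 CPM held 45.1% of the variance and placed the 48 h libraries at 42.9 to 51.1, the 24 h libraries at 28 to 36.5, and the 4 h and 0 h libraries at −48.8 to −30.4. Replicate 3 at 24 h stood apart on the third component at 34.6, with 48 h replicate 2 farthest on the other side at −24.3 and the other libraries between −20 and 12.4. The median centred log2 CPM of a list of glycolysis and hypoxia genes was 0.30 in it and −0.56 and −0.52 in the other 24 h libraries. The labelled erythroblast type was checked on marker lists, summed as CPM of total counts. Regulators of the erythroid program summed to 6250 to 7010 CPM at 48 h and 5180 to 5470 CPM at 24 h, and globin genes to 1970 to 2930 CPM at 48 h and 1550 to 2370 CPM at 24 h. The sum of the regulators includes Gata1, whose reads may come largely from the introduced form of GATA1. Lymphoid markers summed to 3.24 to 4.26 CPM at 48 h and 3.83 to 6.48 CPM at 24 h. Fibroblast and stroma markers summed to 115 to 123 CPM at 48 h and 127 to 162 CPM at 24 h. Pluripotency and germ line markers summed to 150 to 195 CPM at 48 h and 155 to 206 CPM at 24 h. Pou5f1 and Sox2, defining genes of embryonic stem cells, were among 17 genes of that list with no counts at either time.

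Yy1 mRNA had 266, 289 and 253 CPM at 48 h, against 260.3, 236 and 239 CPM at 24 h, and the change did not pass the test (0.14 ± 0.09, adjusted p = 0.422, edgeR quasi-likelihood test with Benjamini-Hochberg adjustment, used for all adjusted p-values here). The degron acts on the protein, so this transcript does not check the depletion. Except for the marker sums, CPM use library sizes adjusted by TMM factors, folds are log2(48 h over 24 h), and values after ± are standard errors of a fold with n = 3 per time.

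Of the 15157 genes tested, 459 rose (3.03%) and 430 fell (2.84%) at 48 h relative to 24 h, which is 5.87% called at an adjusted p under 0.05. By more than 1 on the log2 scale, 61 rose and 39 fell. The median absolute log2 fold change over all genes was 0.16, and the median log2 fold change −0.0048. In the same fit, 3253 genes rose and 3258 fell at 24 h relative to 0 h (21.5% each, 43% called), with a median absolute log2 fold change of 0.34, and 3777 rose and 3732 fell at 48 h relative to 0 h (24.9% and 24.6%, 49.5% called). These comparisons share libraries with the second-day one, so the counts stand side by side without a test of their difference. The 24 h libraries enter the folds of 24 h over 0 h and of 48 h over 24 h with opposite sign. A deviation in them moves these folds in opposite directions, which holds for every gene and list below. Fitted on the 24 h and 48 h libraries alone, 316 genes rose and 161 fell, which moves the share of calls that rose to 66.2%, against 51.6% with all 12 libraries. In that fit 44 of 115 called genes lost their call, a set holding genes of the naming rule and others added after their values were seen. Leaving out 1 library left 213 to 352 higher and 164 to 375 lower calls. Of the same 115, 55 kept their call without each library, and 52, 28 and 36 lost it without 48 h replicates 1, 2 and 3 and 29, 56 and 23 without 24 h replicates 1, 2 and 3. Groups did not overlap in 3595 genes tested (23.7%) and in 886 of the 889 called, so a lack of overlap adds little to a call.

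**Figure D1:**
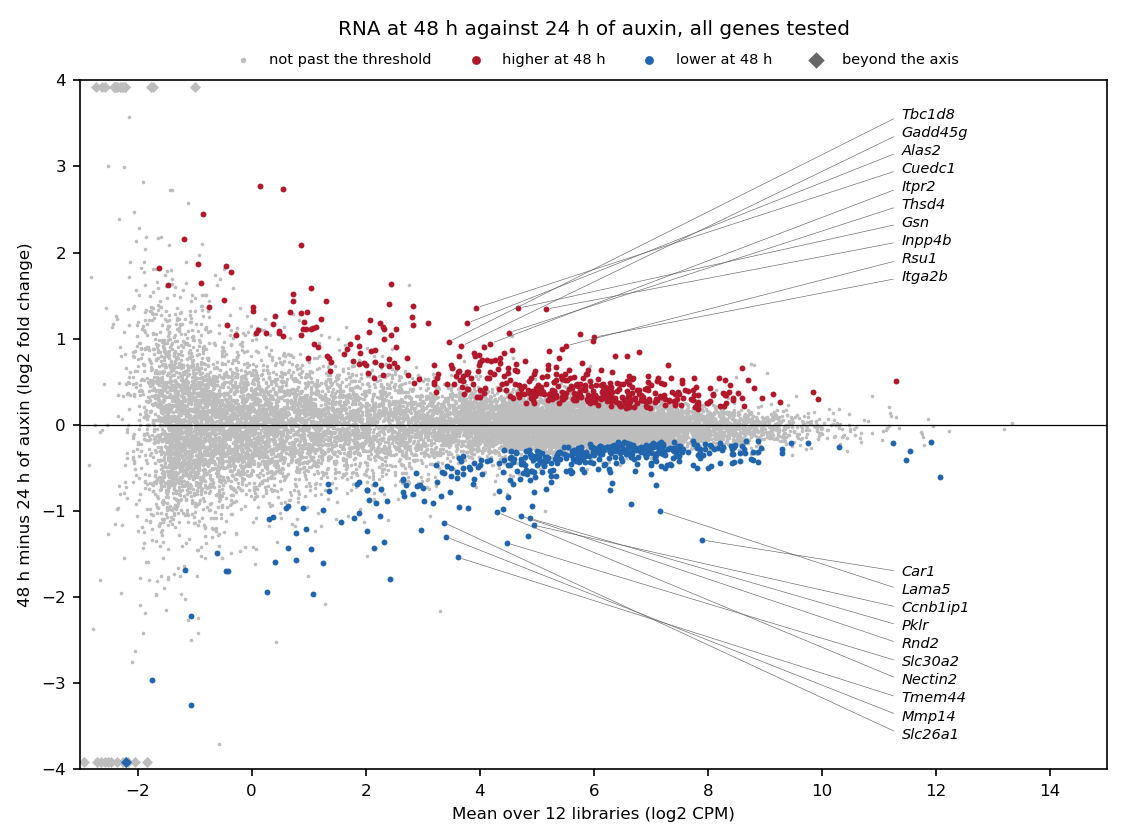
Log2 fold change at 48 h relative to 24 h of auxin (vertical axis) against mean log2 CPM over the 12 libraries (horizontal axis) for the 15157 genes tested, with 459 genes that rose in red, 430 that fell in blue and the named genes joined to their points by lines. Diamonds mark 28 genes beyond ±4, 1 of them called, and most called genes lie within 1 of zero.

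The 10 genes with the highest fold under the naming rule are led by Cuedc1, Gsn and Inpp4b. Gsn, which encodes gelsolin, a protein that severs actin filaments, had 48.01, 61.7 and 54.1 CPM at 48 h, against 13.99, 24.7 and 25.4 CPM at 24 h (1.35 ± 0.20, adjusted p = 0.0027). Inpp4b, a phosphatase of phosphoinositide lipids, had 84.9, 57.1 and 63.2 CPM at 48 h, against 30.2, 33.8 and 17.01 CPM at 24 h (1.34 ± 0.26, adjusted p = 0.0102). In both genes the lowest 48 h library stood above the highest 24 h library, which the naming rule required of all 10. Cuedc1, a ubiquitin-binding CUE domain protein, had 40.1, 32.2 and 37.9 CPM at 48 h, against 14.3, 11.2 and 17.5 CPM at 24 h (1.36 ± 0.20, adjusted p = 0.00205). Rsu1, a component of the adhesion complex of integrin-linked kinase, had 62.1, 73.97 and 59.6 CPM at 48 h, against 29.03, 39.6 and 35.1 CPM at 24 h (0.91 ± 0.12, adjusted p = 0.00107). Itpr2, an inositol trisphosphate receptor that releases calcium from the endoplasmic reticulum, had 22.5, 18.1 and 16.1 CPM at 48 h, against 7.52, 11.5 and 10.5 CPM at 24 h (0.94 ± 0.18, adjusted p = 0.00859). The last of these ran the other way on the first day, with a fall at 24 h relative to 0 h (−1.72 ± 0.18), and so did Rsu1 (−0.47 ± 0.12), while Cuedc1 and Gsn had estimates near zero on that day (−0.02 ± 0.20 and −0.05 ± 0.21). The rest of the 10 highest were Thsd4, an extracellular matrix protein (1.07 ± 0.19, adjusted p = 0.00767), Tbc1d8, a TBC domain protein (0.96 ± 0.19, adjusted p = 0.0104), Gadd45g, a gene induced by stress and differentiation (0.91 ± 0.15, adjusted p = 0.00428), Itga2b and Alas2. All 10 kept their call without each of the 6 libraries in turn, except Alas2.

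The 10 genes with the lowest fold are led by Tmem44, Slc30a2 and Car1. Tmem44, which encodes a transmembrane protein, had 6.51, 3.52 and 5.25 CPM at 48 h, against 18.2, 10.1 and 16.3 CPM at 24 h (−1.54 ± 0.23, adjusted p = 0.00223). Slc30a2, a zinc transporter, had 11.2, 10.6 and 9.13 CPM at 48 h, against 29.6, 24.9 and 25.5 CPM at 24 h (−1.37 ± 0.14, adjusted p = 0.00032). Neither gene had passed the edgeR test on the first day (−0.15 ± 0.21, adjusted p = 0.592, and −0.13 ± 0.14, adjusted p = 0.487, at 24 h relative to 0 h). Car1, carbonic anhydrase of the red cell, had 83.9, 59.99 and 91.5 CPM at 48 h, against 208, 200.1 and 187 CPM at 24 h (−1.34 ± 0.13, adjusted p = 0.00032). Pklr, the pyruvate kinase of red cells and liver, had 13.2, 13.4 and 11.5 CPM at 48 h, against 21.6, 29.4 and 29.98 CPM at 24 h (−1.09 ± 0.12, adjusted p = 0.000356). Both red cell enzymes had already fallen on the first day (−1.26 ± 0.13 for Car1 and −0.82 ± 0.11 for Pklr). Ccnb1ip1, a ubiquitin ligase known for its role in meiotic crossing over, had 11.97, 12.6 and 16.3 CPM at 48 h, against 29.4, 31.98 and 30.4 CPM at 24 h (−1.17 ± 0.11, adjusted p = 0.00032). Mmp14, a membrane-bound matrix metalloproteinase, had 3.01, 2.39 and 2.20 CPM at 48 h, against 6.88, 4.85 and 7.05 CPM at 24 h (−1.30 ± 0.18, adjusted p = 0.00161). Mmp14 also had the largest first-day fall of these 10 (−2.35 ± 0.16). Slc26a1, a sulfate transporter, fell by 1.14 ± 0.13, Rnd2, a small GTPase, by 1.06 ± 0.12, Nectin2, an adhesion molecule, by 1.02 ± 0.13, and Lama5, a laminin chain, by 1.00 ± 0.20 on the log2 scale, with adjusted p of 0.000416, 0.000356, 0.00123 and 0.012. All 10 kept their call without each library in turn.

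Most of the tested megakaryocyte and platelet genes rose on the second day. Of 12 tested, 7 rose and none fell (58.3%, against 5.87% of all genes), with a median log2 fold change of 0.71. The platelet receptor for fibrinogen is made of the chains encoded by Itga2b and Itgb3. Itga2b had 189.9, 175 and 212 CPM at 48 h, against 81.5, 91.4 and 112 CPM at 24 h (1.02 ± 0.13, adjusted p = 0.000912). Itgb3 had 226, 239 and 200.3 CPM at 48 h, against 151, 155 and 149.8 CPM at 24 h (0.54 ± 0.08, adjusted p = 0.0019). The 48 h libraries were above all 24 h libraries for both chains, and both had also risen on the first day (1.69 ± 0.13 and 0.61 ± 0.08). The receptor for von Willebrand factor moved too. Its alpha chain Gp1ba had 79.7, 76.1 and 63.2 CPM at 48 h, against 40.99, 43.9 and 42.7 CPM at 24 h (0.78 ± 0.11, adjusted p = 0.00161). Gp5, the associated glycoprotein V, had 37.9, 36.7 and 35.1 CPM at 48 h, against 21.2, 21.2 and 23.1 CPM at 24 h (0.75 ± 0.13, adjusted p = 0.00606). Gp9, the glycoprotein IX chain, had 19.7, 20.1 and 22.1 CPM at 48 h, against 10.6, 12.8 and 14.2 CPM at 24 h (0.72 ± 0.16, adjusted p = 0.0178). No 48 h library overlapped a 24 h library in any of these chains. F2rl2, a thrombin receptor, had 19.9, 23.3 and 17.9 CPM at 48 h, against 5.30, 9.06 and 8.73 CPM at 24 h (1.40 ± 0.25, adjusted p = 0.00648). Nrgn, a calmodulin-binding protein found in platelets, had 117, 135 and 127 CPM at 48 h, against 66.1, 77.6 and 74.5 CPM at 24 h (0.80 ± 0.09, adjusted p = 0.000646), after a fall on the first day (−0.44 ± 0.09). The platelet chemokine Pf4 had 21.5, 14.4 and 14.5 CPM at 48 h, against 10, 11.1 and 15.5 CPM at 24 h and did not pass (0.47 ± 0.25, adjusted p = 0.318). The number of calls was 6 to 8 with a single library left out. Gp9 did not pass without 48 h replicate 1 or 3 or without 24 h replicate 1 or 2 (adjusted p up to 0.068). The whole list of 24 summed to 747 to 775 CPM at 48 h and 412 to 476 CPM at 24 h. Gp1bb, Thbs1, Pdgfa, Clec1b and Nfe2l3 had no counts at either time, and Vwf was below 1 CPM in every 24 h and 48 h library. In bulk libraries, a change in the share of cells of a type and a change in RNA per cell cannot be told apart.

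The promoters of 5 platelet genes that rose are shown because each holds a short motif known to bind factors of this lineage. They are RefSeq promoters in GRCm38.p6, 250 bases before to 50 bases after the start of the gene, 5′ to 3′ on the gene's strand. Capitals mark AGGAAG, the core letters bound by ETS factors such as FLI1, and AGATAA, a form of those bound by GATA factors, searched on both strands. Other forms, such as TGATAA, were not searched and stay in lower case, as in Gp1ba.
Itga2b, chr11:102469834-102470133, − strand: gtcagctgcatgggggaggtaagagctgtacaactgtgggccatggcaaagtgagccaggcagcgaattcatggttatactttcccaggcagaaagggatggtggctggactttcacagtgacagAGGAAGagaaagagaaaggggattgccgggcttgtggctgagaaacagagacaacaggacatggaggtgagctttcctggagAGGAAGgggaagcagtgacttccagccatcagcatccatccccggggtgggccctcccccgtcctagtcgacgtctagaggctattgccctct
Gp1ba, chr11:70638872-70639171, + strand: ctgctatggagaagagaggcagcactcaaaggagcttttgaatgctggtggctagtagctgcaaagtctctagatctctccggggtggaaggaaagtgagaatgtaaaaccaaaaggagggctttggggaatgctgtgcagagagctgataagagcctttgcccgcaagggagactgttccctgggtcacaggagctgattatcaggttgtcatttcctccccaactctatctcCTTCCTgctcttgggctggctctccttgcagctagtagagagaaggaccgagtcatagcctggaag
Gp5, chr16:30310732-30311031, − strand: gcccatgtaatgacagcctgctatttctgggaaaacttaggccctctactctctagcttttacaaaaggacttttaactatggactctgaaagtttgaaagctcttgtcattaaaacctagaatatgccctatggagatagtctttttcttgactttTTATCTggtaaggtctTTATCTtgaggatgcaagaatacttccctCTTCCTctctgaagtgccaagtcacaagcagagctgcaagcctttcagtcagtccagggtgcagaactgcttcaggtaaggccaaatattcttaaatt
Gp9, chr6:87777820-87778119, + strand: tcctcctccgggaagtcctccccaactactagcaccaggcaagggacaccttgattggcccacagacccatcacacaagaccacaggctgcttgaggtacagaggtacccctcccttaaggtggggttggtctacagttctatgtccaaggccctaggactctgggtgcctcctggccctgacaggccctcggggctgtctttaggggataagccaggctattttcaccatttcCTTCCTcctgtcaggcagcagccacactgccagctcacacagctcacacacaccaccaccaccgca
F2rl2, chr13:95696670-95696969, + strand: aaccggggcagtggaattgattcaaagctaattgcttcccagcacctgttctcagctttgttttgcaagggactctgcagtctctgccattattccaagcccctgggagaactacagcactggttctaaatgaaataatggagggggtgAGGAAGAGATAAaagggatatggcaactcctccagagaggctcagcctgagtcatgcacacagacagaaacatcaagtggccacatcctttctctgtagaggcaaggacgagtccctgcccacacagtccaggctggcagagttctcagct
Of 6 called genes of this list with a promoter in the table, 5 held AGGAAG (83.3%) and 2 held AGATAA (33.3%), against 37.1% and 8.44% of the 9432 tested genes with a promoter. Of the 9 tested members with a promoter, called or not, 7 held AGGAAG (77.8%) and 5 held AGATAA (55.6%). The remaining called gene is Nrgn, in which neither set of letters was found in this window. A match is a run of letters, not a binding site, and binding of these factors was not measured at these times.

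Some regulators of the erythroid program and of blood progenitors rose, and red cell genes went both ways. Of 19 erythroid regulators tested, 6 rose and 1 fell (36.8%), with a median of 0.16. Gata1, the master regulator, had 3173, 3466 and 2719 CPM at 48 h, against 2336, 2147 and 2090 CPM at 24 h (0.51 ± 0.09, adjusted p = 0.00642). Cbfa2t3, a corepressor in the TAL1 and GATA1 complex, had 239.9, 243 and 234 CPM at 48 h, against 178, 169 and 146 CPM at 24 h (0.54 ± 0.09, adjusted p = 0.00411). Nfe2, a factor needed for platelet release and globin expression, had 297, 319 and 313 CPM at 48 h, against 228, 249 and 256 CPM at 24 h (0.34 ± 0.06, adjusted p = 0.0083). Sox6, a repressor of embryonic globin, had 55.97, 49.9 and 54.98 CPM at 48 h, against 37.9, 37.8 and 33.5 CPM at 24 h (0.56 ± 0.10, adjusted p = 0.00642). All 4 had higher values in every 48 h library than in any 24 h library, and Gata1 and Cbfa2t3 had fallen on the first day (−0.29 ± 0.09 and −0.56 ± 0.09). Tal1 and Lmo2, partners in the same complex, rose by 0.22 ± 0.05 and 0.20 ± 0.05. Tal1 did not pass without 48 h replicate 1 or 2 or without 24 h replicate 1 or 3 (adjusted p up to 0.0982), and Lmo2 did not pass without each of the 6 libraries in turn (adjusted p up to 0.137). Epor, the erythropoietin receptor, was the one that fell (−0.26 ± 0.06, adjusted p = 0.0184), a call absent without 48 h replicate 1 or without 24 h replicate 2 or 3 (adjusted p up to 0.0685). G1E-ER4 cells lack their own GATA1 and carry an introduced form, so reads counted as Gata1 may come largely from that transgene. A table by gene symbol does not separate these sources, and the Gata1 values do not measure the cells' own gene. Among 16 stem and progenitor regulators, 4 rose and none fell (25%, median 0.082). Runx1 had 206, 242 and 190.5 CPM at 48 h, against 142, 160.2 and 136 CPM at 24 h (0.54 ± 0.09, adjusted p = 0.00487). Fli1 had 63.7, 64.4 and 56.2 CPM at 48 h, against 42.1, 42.5 and 42.5 CPM at 24 h (0.54 ± 0.09, adjusted p = 0.00606). The groups did not overlap in either gene, and both calls held without each library. Etv6 and Gata2, 2 further factors of early blood cells, rose by 0.30 ± 0.07 and 0.35 ± 0.09. The call of Etv6 was absent without 48 h replicate 1 or 2 or without 24 h replicate 2 or 3 (adjusted p up to 0.0769), and that of Gata2 without 48 h replicate 1 or 2 or without 24 h replicate 2 or 3 (adjusted p up to 0.151).

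Red cell membrane and late erythroid genes had 4 members that rose and 2 that fell of 25 tested (24%, median 0.092). Sptb, beta spectrin, had 437, 445 and 393 CPM at 48 h, against 296, 343 and 349 CPM at 24 h (0.37 ± 0.09, adjusted p = 0.0246), and every 48 h library was above every 24 h library. Epb42, protein 4.2, rose by 1.11 ± 0.29, while Car1 (above) and the blood group protein Ermap (−0.27 ± 0.07) fell. Leaving out single libraries gave 2 to 4 higher and 1 lower calls. Sptb did not pass without 48 h replicate 1 or 2 or without 24 h replicate 1 or 2 (adjusted p up to 0.0918), Epb42 without 48 h replicate 1, 2 or 3 or without 24 h replicate 1 or 2 (adjusted p up to 0.135) and Ermap without each of the 6 libraries in turn (adjusted p up to 0.116). No globin gene of 5 passed with edgeR (3 at an unadjusted p under 0.05), while 1 was called higher by DESeq2, 2 with the replicate number as a block, 2 without 48 h replicate 1 and 3 of 9 without the filter on low counts. Hba-a2 had 510.2, 852 and 665 CPM at 48 h, against 327, 541 and 466 CPM at 24 h (0.60 ± 0.18, adjusted p = 0.07), and the 24 h and 48 h libraries overlapped. In heme synthesis, 1 of 18 rose (5.56%, near the share of all genes) and none fell. This was Alas2, the first enzyme of heme synthesis in red cells, with 27.9, 45.5 and 44.5 CPM at 48 h, against 10.8, 19.8 and 21.5 CPM at 24 h (1.18 ± 0.31, adjusted p = 0.0412). Alas2 did not pass without 48 h replicate 2 or 3 or without 24 h replicate 1 or 2 (adjusted p 0.0453 to 0.117 without single libraries). Iron genes split, with 2 higher and 2 lower of 20 tested (20%). Tfr2, a transferrin receptor that senses iron, had 58.5, 52.9 and 68.1 CPM at 48 h, against 119, 102 and 121 CPM at 24 h (−0.93 ± 0.10, adjusted p = 0.00032). Steap3, the ferric reductase of the endosome, had 39.8, 41.95 and 41.4 CPM at 48 h, against 57.02, 66.7 and 56.05 CPM at 24 h (−0.55 ± 0.08, adjusted p = 0.00191). Ncoa4, which delivers ferritin to the lysosome for breakdown, had 244, 271 and 254 CPM at 48 h, against 175, 191 and 183 CPM at 24 h (0.49 ± 0.06, adjusted p = 0.000912). Tfr2 had not passed on the first day (−0.05 ± 0.09, adjusted p = 0.702), and Steap3 had fallen (−1.05 ± 0.08). Aco1, the iron regulatory protein, rose by 0.25 ± 0.06, a call absent without 48 h replicate 1 or 2 or without 24 h replicate 1, 2 or 3 (adjusted p up to 0.12).

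**Figure D2:**
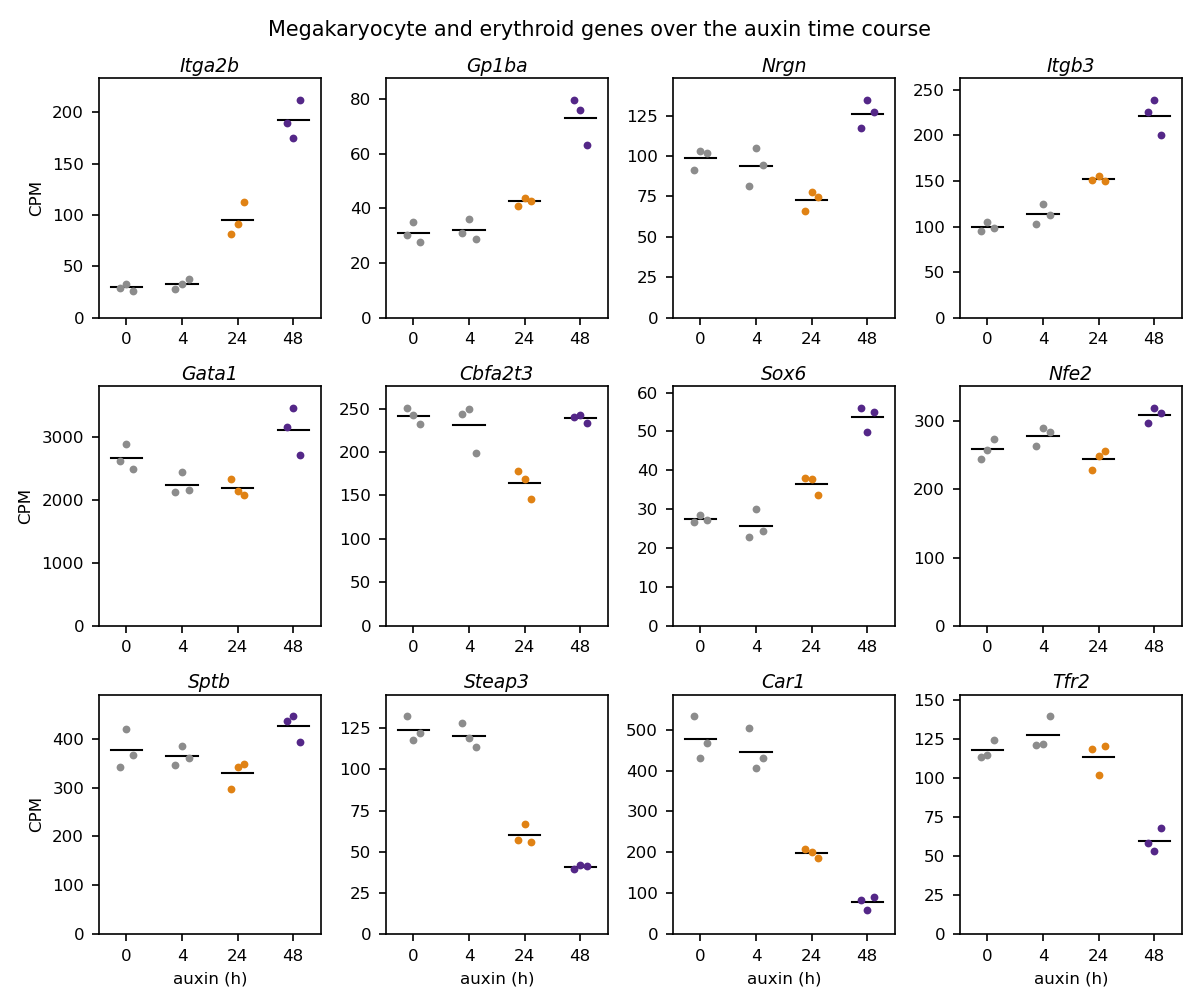
CPM (vertical axes, starting at 0) by hours of auxin for 12 megakaryocyte and erythroid genes, with 1 point per library, the mean as a line, 24 h in orange and 48 h in purple. Itga2b was highest at 48 h (174.8 to 212 CPM), Nrgn and Cbfa2t3 were lowest at 24 h, and Tfr2 was lower at 48 h (52.9 to 68.1 CPM) than at 24 h (102 to 121 CPM).

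Part of the cholesterol synthesis genes rose on the second day after a fall on the first. Both changes rest on the same 24 h libraries, with opposite sign, so they are not independent. Of 24 tested, 9 rose and none fell (37.5%), with a median of 0.26 and a positive estimate in 21. At 24 h relative to 0 h, 22 of the 24 had fallen and 1 had risen (median −0.65), and at 4 h relative to 0 h, 10 had risen and none had fallen (median 0.28). At 48 h relative to 0 h, 18 were lower and 1 higher (median −0.41). Hmgcs1, the synthase at the entry of the pathway, had 364, 347 and 354 CPM at 48 h, against 276, 186 and 213 CPM at 24 h (0.66 ± 0.11, adjusted p = 0.0048). Mvd, mevalonate diphosphate decarboxylase, had 68.8, 72.7 and 71.3 CPM at 48 h, against 57.5, 43.6 and 51.1 CPM at 24 h (0.48 ± 0.10, adjusted p = 0.0152). Sqle, squalene epoxidase, had 199.8, 212 and 190.4 CPM at 48 h, against 178, 145 and 152 CPM at 24 h (0.34 ± 0.07, adjusted p = 0.0154). In all of these the lowest 48 h library stood above the highest 24 h library, and the 48 h values stayed below the 0 h values (432, 466 and 456 CPM for Hmgcs1). Srebf2, which encodes SREBP2, rose by 0.26 ± 0.06, and Msmo1, Fdft1 and Hsd17b7 by 0.36 to 0.48. The number of calls rested on single libraries, with 2, 2 and 7 without 48 h replicates 1, 2 and 3, and 13, 1 and 2 without 24 h replicates 1, 2 and 3, while the median stayed between 0.21 and 0.33. The fit on the 24 h and 48 h libraries alone called 3. Hmgcs1 kept its call without each library. Mvd did not pass without 24 h replicate 2 (adjusted p up to 0.0623), Sqle without 48 h replicate 1 or 2 or without 24 h replicate 2 or 3 (adjusted p up to 0.0712), and Srebf2 and Hsd17b7 without the same 4 libraries as Sqle. Msmo1 and Fdft1 did not pass with any of these 4, or 48 h replicate 3, left out (adjusted p up to 0.148). The Hmgcs1 promoter is shown because it alone among the 17 list members with a promoter held TCACNCCAC, a form of the sterol regulatory element. This is 5.88%, against 1.28% of all tested genes with a promoter. Both strands were searched, and the match is in capitals. Other forms of the element were not searched, so they may be present in these promoters.
Hmgcs1, chr13:119690101-119690400, + strand: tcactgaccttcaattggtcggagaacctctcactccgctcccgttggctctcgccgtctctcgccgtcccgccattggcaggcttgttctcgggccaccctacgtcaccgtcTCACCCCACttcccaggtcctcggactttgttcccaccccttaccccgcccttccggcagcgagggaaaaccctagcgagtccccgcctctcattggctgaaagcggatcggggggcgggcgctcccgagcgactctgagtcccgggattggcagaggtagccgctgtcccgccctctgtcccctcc

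Many replication genes fell. Of 46 S phase and DNA replication genes tested, 19 fell and none rose (41.3%), with a median of −0.22 and a positive estimate in 1. Tyms, thymidylate synthase, had 65.6, 65.2 and 71 CPM at 48 h, against 91.4, 92.4 and 91.3 CPM at 24 h (−0.45 ± 0.06, adjusted p = 0.00121). Mcm3, a subunit of the replicative helicase, had 471, 488 and 466 CPM at 48 h, against 607, 612 and 568 CPM at 24 h (−0.33 ± 0.05, adjusted p = 0.0026). Mcm5, another subunit, had 237, 266 and 245 CPM at 48 h, against 313, 333 and 292 CPM at 24 h (−0.33 ± 0.06, adjusted p = 0.00923). Every 48 h library lay below every 24 h library in these genes. Rrm2, the regulated subunit of ribonucleotide reductase, had 293, 315 and 302 CPM at 48 h, against 398, 392 and 357 CPM at 24 h (−0.33 ± 0.06, adjusted p = 0.00926). Mcm3, Mcm5 and Rrm2 had fallen on the first day as well (−0.39 ± 0.05, −0.88 ± 0.06 and −0.45 ± 0.06), and Tyms had not passed (0.10 ± 0.06, adjusted p = 0.187). All 4 kept their calls without each library. The number of lower calls was 9, 14 and 13 without 48 h replicates 1, 2 and 3, and 11, 8 and 22 without 24 h replicates 1, 2 and 3, with medians from −0.27 to −0.18, and 8 on the 24 h and 48 h libraries alone. Genes of G2 and M phase had 1 lower call of 44 (2.27%, against 5.87% of all genes, median −0.085). That gene was Kif23, a kinesin of cell division, which lost its call without each of the 6 libraries (adjusted p = 0.0412 with all of them). Replication-dependent histones had 1 higher and 1 lower call of 54 (3.7%), and 0 to 3 higher and no lower call with single libraries left out. Inhibitors of the cell cycle and G1 cyclins had 1 higher of 17 (5.88%, near the share of all genes). That call was absent without 48 h replicate 1 or 3 or without 24 h replicate 1 or 2. The promoter of Mcm5 is shown because it held 2 overlapping matches to TTTNGCGC (in capitals), a form of the letters bound by E2F factors. Both strands were searched for this form alone, and other forms may be present.
Mcm5, chr8:75109259-75109558, + strand: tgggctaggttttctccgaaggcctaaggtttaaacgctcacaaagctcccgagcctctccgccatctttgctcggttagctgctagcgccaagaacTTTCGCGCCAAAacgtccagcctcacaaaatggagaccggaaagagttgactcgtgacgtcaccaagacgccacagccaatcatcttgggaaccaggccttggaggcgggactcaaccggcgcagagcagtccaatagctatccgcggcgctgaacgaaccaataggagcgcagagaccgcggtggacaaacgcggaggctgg
Of 37 S phase genes with a promoter, 10 held these letters (27%), against 3.04% of all tested genes with a promoter, and of the 16 that fell and had a promoter, 4 did (25%).

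**Figure D3:**
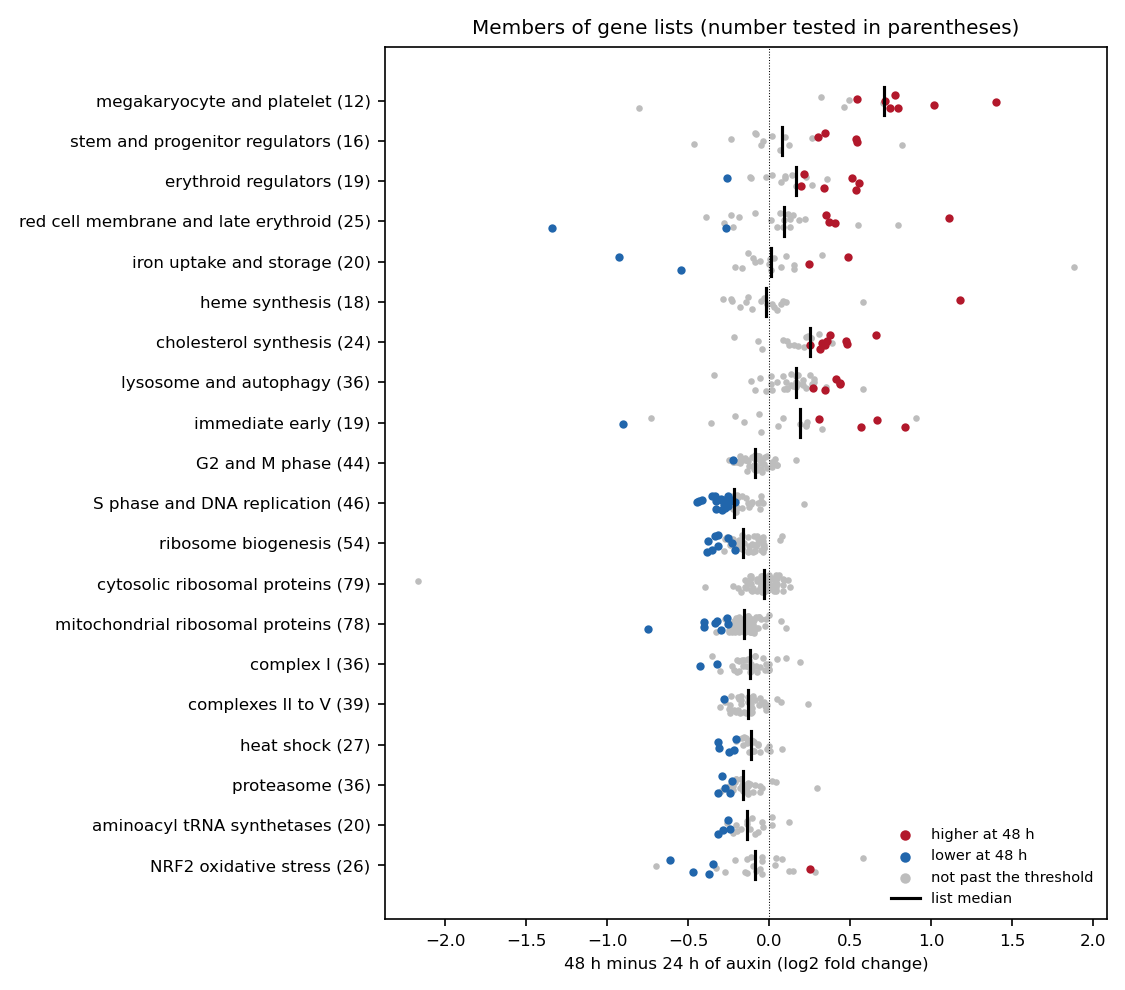
Log2 fold change at 48 h relative to 24 h (horizontal axis) of each tested member of 20 gene lists, with calls in red (higher) and blue (lower), other members in grey and the list median as a black bar. The megakaryocyte list has the highest median drawn (0.71) and the S phase list the lowest (−0.22).

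Genes for making ribosomes and proteins in the nucleolus and mitochondrion fell in small numbers, and the ribosomal proteins of the cytosol had no call. Of 54 ribosome biogenesis genes, 9 fell and none rose (16.7%, median −0.16). Noc4l, a factor of small subunit assembly, had 85.1, 95.04 and 91.5 CPM at 48 h, against 113, 116 and 114 CPM at 24 h (−0.34 ± 0.06, adjusted p = 0.00526), and each 48 h library was below each 24 h library. Nop10, a protein of the pseudouridylation complex, fell by 0.38 ± 0.08 on the log2 scale and did not pass without 24 h replicate 2 (adjusted p up to 0.0526). At 24 h relative to 0 h, 49 of the 54 had fallen (median −0.43). Lower calls in this list numbered 2, 9 and 5 without 48 h replicates 1, 2 and 3, and 4, 1 and 11 without 24 h replicates 1, 2 and 3. Of 78 mitochondrial ribosomal proteins, 8 fell and none rose (10.3%, median −0.15). Mrpl52, of the large subunit, had 16.6, 16.2 and 18.2 CPM at 48 h, against 27.9, 28.5 and 29.01 CPM at 24 h (−0.75 ± 0.07, adjusted p = 0.00032), and Mrpl28 had 59.4, 60.7 and 63.4 CPM at 48 h, against 73.1, 77.2 and 75.3 CPM at 24 h (−0.30 ± 0.05, adjusted p = 0.00721). On the first day Mrpl52 had fallen too (−1.08 ± 0.07), and Mrpl28 had not passed (−0.06 ± 0.05, adjusted p = 0.37). Both kept their calls without each library, while the list had 2, 8 and 4 without 48 h replicates 1, 2 and 3, and 7, 2 and 7 without 24 h replicates 1, 2 and 3. None of the 79 cytosolic ribosomal proteins passed the edgeR test (6 at an unadjusted p under 0.05, median −0.029). DESeq2, the replicate block and the fit without the filter called 2 of them lower each, and 3 were lower without 24 h replicate 1.

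Other housekeeping groups had few calls, and those they had were lower. In the proteasome, heat shock and synthetase lists the share called was above the 5.87% of all genes. Of 36 proteasome genes 5 fell (13.9%, median −0.16). Psmc6, an ATPase of its cap, had 152, 144 and 157 CPM at 48 h, against 179, 192 and 193 CPM at 24 h (−0.32 ± 0.06, adjusted p = 0.00719), and it was the member of the 4 with the smallest p that kept its call without each library. Of 27 heat shock genes 5 fell (18.5%, median −0.11), with Cct3, a chaperonin subunit, at −0.32 ± 0.07 and Fkbp4, a cochaperone of HSP90, at −0.31 ± 0.07. Of 20 aminoacyl tRNA synthetases 4 fell (20%, median −0.14), namely Nars, Mars1, Lars and Iars. Cct3 did not pass without 48 h replicate 1 or without 24 h replicate 2 (adjusted p up to 0.063) and Fkbp4 without 48 h replicate 1 or 3 or without 24 h replicate 2 (adjusted p up to 0.0833). On the 24 h and 48 h libraries alone, lower calls were 2 for ribosome biogenesis, 2 for mitochondrial ribosomal proteins, 1 for the proteasome and 0 for heat shock and for the synthetases. The counts depended on single libraries. Lower calls were 1, 7 and 3 without 48 h replicates 1, 2 and 3, and 6, 1 and 4 without 24 h replicates 1, 2 and 3 for the proteasome, 0, 6 and 1 without 48 h replicates 1, 2 and 3, and 4, 0 and 5 without 24 h replicates 1, 2 and 3 for heat shock, and 0, 3 and 0 without 48 h replicates 1, 2 and 3, and 1, 1 and 4 without 24 h replicates 1, 2 and 3 for the synthetases. Complex I of the respiratory chain had 2 lower calls of 36 (5.56%) and complexes II to V 1 of 39 (2.56%). Their medians were −0.12 and −0.13. DESeq2 called 5 and 6 lower and the replicate block 4 and 7, while leaving out single libraries gave 0 to 2 in complex I and 0 to 5 in complexes II to V, the highest without 48 h replicate 2.

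**Figure D4:**
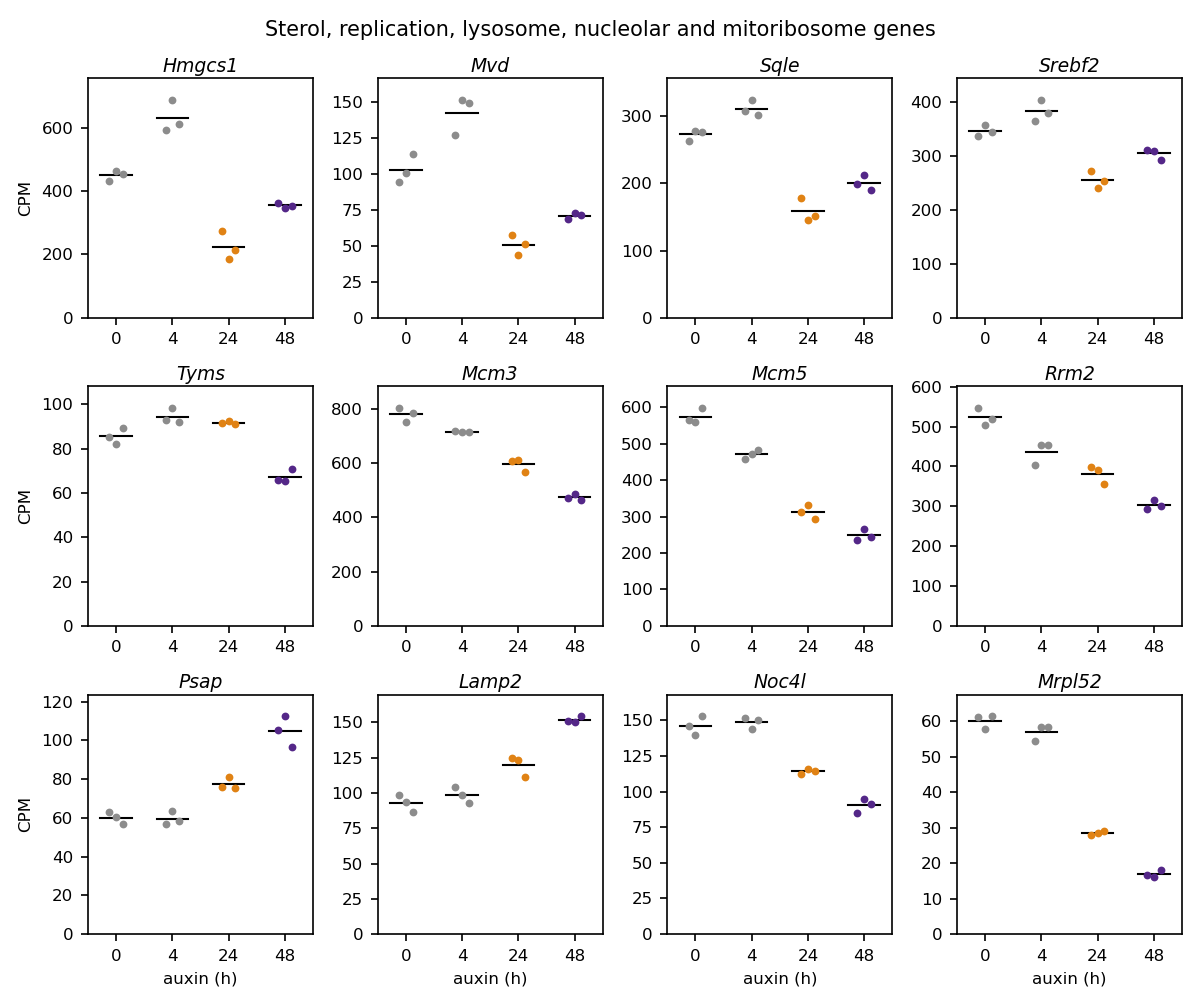
CPM (vertical axes, starting at 0) by hours of auxin for 12 genes of sterol synthesis, replication, the lysosome, the nucleolus and the mitochondrial ribosome, with 1 point per library, the mean as a line, 24 h in orange and 48 h in purple. Hmgcs1 was highest at 4 h and lowest at 24 h, and the replication genes, Noc4l and Mrpl52 were lowest at 48 h (16.2 to 18.2 CPM for Mrpl52 at 48 h, against 27.9 to 29.01 CPM at 24 h).

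Some lysosome genes rose. Of 36 tested, 5 rose and none fell (13.9%, median 0.16), with a positive estimate in 31, and leaving out single libraries left 4 or 5 calls, while the filter at 1 CPM and DESeq2 gave 8. Psap, the precursor of the saposins, had 105, 112 and 96.4 CPM at 48 h, against 75.9, 80.98 and 75.3 CPM at 24 h (0.44 ± 0.07, adjusted p = 0.00426). Lamp2, a protein of the lysosomal membrane, had 151, 151 and 154 CPM at 48 h, against 125, 123 and 111 CPM at 24 h (0.34 ± 0.07, adjusted p = 0.0103). Both were higher in every 48 h library than in any 24 h library. Atp6v0d1, a subunit of the proton pump, rose by 0.41 ± 0.07 and Ctsd, a lysosomal protease, by 0.27 ± 0.07. The call of Ctsd was absent without 48 h replicate 2 or 3 or without 24 h replicate 1 or 3 (adjusted p up to 0.102). Psap and Lamp2 had risen on the first day too (0.37 ± 0.07 and 0.37 ± 0.07).

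Stress and signalling lists had scattered calls, given here beside the 5.87% called of all genes. Of 19 immediate early genes 4 rose and 1 fell (26.3%, median 0.19). Zfp36, which destabilises cytokine mRNA, had 25.3, 27.1 and 24.8 CPM at 48 h, against 13.6, 12.7 and 16.9 CPM at 24 h (0.84 ± 0.15, adjusted p = 0.00719). Klf6, a zinc finger factor, had 51.8, 61.7 and 49.95 CPM at 48 h, against 35.8, 29.1 and 38.04 CPM at 24 h (0.67 ± 0.13, adjusted p = 0.0102). The groups did not overlap in either gene. Fosl1, a component of AP-1, fell (−0.90 ± 0.20, adjusted p = 0.0217), a call absent without 48 h replicate 1 or without 24 h replicate 1 or 2 (adjusted p up to 0.0901). Of 25 p53 targets 2 rose (8%, near the share of all genes, median −5e-05). One was Bbc3, the BH3-only killer protein PUMA, with 52.8, 56.7 and 56.8 CPM at 48 h, against 36.2, 39.4 and 38.5 CPM at 24 h (0.54 ± 0.09, adjusted p = 0.0037). The other was Btg2, an antiproliferative gene (0.57 ± 0.14, adjusted p = 0.0337), a call absent without 48 h replicate 1, 2 or 3 or without 24 h replicate 1 or 2 (adjusted p up to 0.134). On the first day 16 of the 25 had risen (median 0.56). Among 26 genes of the NRF2 oxidative stress response 4 fell and 1 rose (19.2%, median −0.09). Pgd, an NADPH-producing enzyme of the pentose phosphate pathway, had 137, 165 and 138 CPM at 48 h, against 217, 206 and 186 CPM at 24 h (−0.47 ± 0.08, adjusted p = 0.00526). Prdx1, a peroxidase, had 215, 239 and 208 CPM at 48 h, against 286, 291 and 264 CPM at 24 h (−0.35 ± 0.07, adjusted p = 0.0104). The lower calls of G6pdx and Nqo1 were absent without 48 h replicate 1 or 3 or without 24 h replicate 1 or 2 (adjusted p up to 0.104). Of 16 interferon response genes 2 rose (12.5%, median 0.27), among them Parp9 (0.37 ± 0.09, adjusted p = 0.0294), and without 24 h replicate 3 or 48 h replicate 3 none passed. In the JAK-STAT5 pathway 3 rose and 1 fell of 18 (22.2%), with Socs2, a feedback inhibitor, at 0.26 ± 0.05, adjusted p = 0.012. With single libraries left out, 1 or 2 of its genes were higher and 0 or 1 lower. Of 25 genes of the integrated stress and unfolded protein responses 1 rose and 3 fell (16%), with 0 to 2 higher and 0 to 4 lower when single libraries were left out.

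Few markers of other blood cells were tested, with 1 call of 6 in the myeloid list (16.7%) and 2 of 7 in the mast cell and basophil list (28.6%). Over all genes 5.87% were called. Of 6 tested myeloid markers Laptm5, a lysosomal membrane protein of blood cells, rose (594, 586 and 506 CPM at 48 h, against 416, 411 and 427 CPM at 24 h; 0.43 ± 0.08, adjusted p = 0.009). The whole myeloid list of 25 summed to 573 to 670 CPM at 48 h and 446 to 478 CPM at 24 h, most of it Laptm5, and S100a8, S100a9, Cebpa and Irf8 were among 10 of its genes with no counts. Of 7 mast cell and basophil markers Hdc, histidine decarboxylase, and Ms4a2, a chain of the IgE receptor, fell (−0.97 ± 0.21, adjusted p = 0.0197 and −1.97 ± 0.49, adjusted p = 0.0329), with 3 libraries per time. Hdc did not pass without 48 h replicate 1 or 3 or without 24 h replicate 1 or 2 (adjusted p up to 0.0713), and Ms4a2 did not pass without 48 h replicate 1, 2 or 3 or without 24 h replicate 1 or 2 (adjusted p up to 0.109). Mast cell markers summed to 255 to 316 CPM at 48 h and 248 to 331 CPM at 24 h. No lymphoid (3 tested), fibroblast (5) or pluripotency and germ line gene (5) passed with edgeR or DESeq2, and 1, 0 and 0 had an unadjusted p under 0.05.

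Several groups had few or no calls on the second day, when 5.87% of all genes were called. At 24 h relative to 0 h, 43% of all genes were called. None of 36 splicing factors passed with edgeR (4 at an unadjusted p under 0.05, median −0.018), after 23 had fallen and 3 had risen at 24 h relative to 0 h. DESeq2 called 2 lower at 48 h relative to 24 h, and the replicate block and the filter at 1 CPM called 1 each. None of 22 genes of the TCA cycle passed with edgeR (6 at an unadjusted p under 0.05, median −0.055), after 13 had fallen. DESeq2 and the filter at 1 CPM called 2 lower each, the replicate block 3, and the fit without 48 h replicate 2 called 1. Of 31 glycolysis and hypoxia genes none passed with edgeR or DESeq2 (3 at an unadjusted p under 0.05), after 18 had fallen. The replicate block called 1 lower, and the fit without the filter on low counts 1 higher. Without 24 h replicate 3, the library that stood apart, 4 glycolysis and hypoxia genes rose. The median was then 0.31, against −0.029 with all libraries. Its sign varied with the library left out. It was −0.27, −0.0028 and 0.075 without 48 h replicates 1, 2 and 3, and −0.2 and −0.21 without 24 h replicates 1 and 2. No gene of the list passed in these other fits. Subunits of INO80, a remodeller in which YY1 is a known partner, had 1 lower call of 15 (6.67%, near the share of all genes). It was Ruvbl2, an ATPase (−0.29 ± 0.06, adjusted p = 0.0132), which did not pass without 24 h replicate 2 (adjusted p up to 0.0576). Polycomb genes had 1 lower of 29 (3.45%) and none with any single library left out. Chromatin architecture factors had 1 higher and 1 lower of 23 (8.7%), and with single libraries left out none were higher and 0 or 1 lower.

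**Figure D5:**
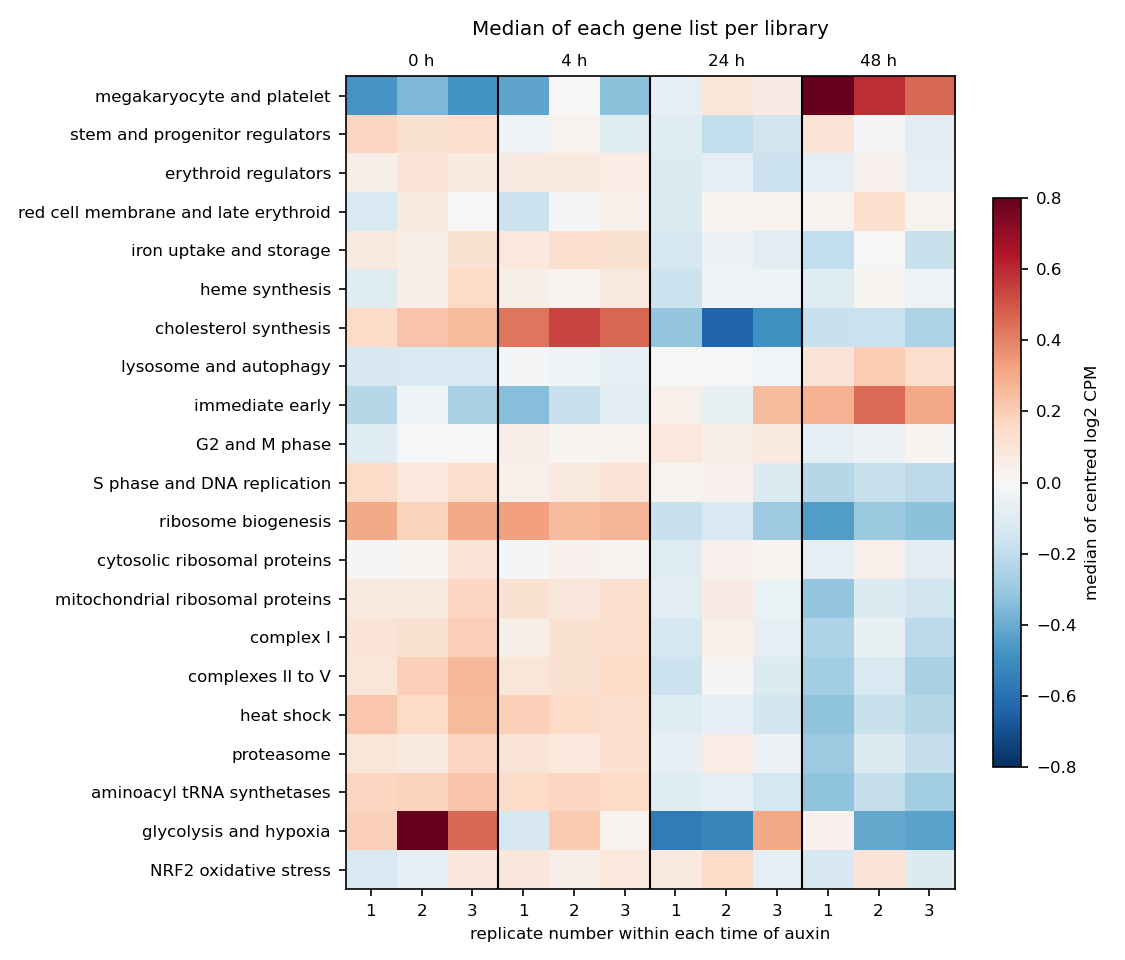
Median over list members of log2 CPM centred on each gene's mean (colour), for 21 gene lists (rows) in the 12 libraries (columns, replicates 1 to 3 at 0, 4, 24 and 48 h of auxin). Cholesterol synthesis is lowest in the 24 h libraries, the megakaryocyte list is highest in the 48 h libraries, and the glycolysis and hypoxia list differs among replicates of a time (0.30 in 24 h replicate 3, against −0.56 and −0.52 in the others).

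The early response to auxin was set against the second-day change in comparisons that share no library with it. For RNA, all 12 libraries entered the fit behind the second-day calls, so both RNA comparisons share an estimate of the spread. A gene of low spread is then more readily called in both, and the RNA shares below are not independent. The TT-seq libraries were fitted apart. At 4 h relative to 0 h, 7.28% of genes were called in RNA, 3.14% higher and 4.14% lower. Of 476 genes that had risen at 4 h relative to 0 h in RNA, 35 rose (7.35%) and 13 fell (2.73%) at 48 h relative to 24 h, and of 627 that had fallen at 4 h, 38 rose (6.06%) and 25 fell (3.99%). Among all genes 3.03% rose and 2.84% fell. In a fit with the replicate block, 9.85% passed at 4 h (4.36% higher and 5.49% lower). Of 661 higher genes, 45 rose (6.81%) and 14 fell (2.12%) on the second day, and of 832 lower genes, 46 rose (5.53%) and 31 fell (3.73%). TT-seq, which sequences RNA labelled during a short pulse of 4-thiouridine and so reads ongoing synthesis, compared 4 h of auxin with untreated cells, 3 libraries each, and called 2.11% of its genes higher and 7.09% lower (9.2% in all). Of 220 genes higher in TT-seq, 9 rose (4.09%) and 6 fell (2.73%) on the second day, and of 773 lower in TT-seq, 35 rose and 35 fell (4.53% each), against 3.97% and 3.74% of the 10110 genes tested in both. With the replicate number as a block, which pairs the TT-seq libraries, 47.9% were called (22.7% higher and 25.3% lower). Of those tested in both, 2392 genes were higher, of which 89 rose (3.72%) and 83 fell (3.47%), and 2730 were lower, of which 141 rose (5.16%) and 108 fell (3.96%). Across genes, the log2 fold changes at 4 h and on the second day had Pearson r = 0.022 and Spearman rho = −0.014 for RNA (15157 genes) and r = 0.027 and rho = 0.02 for TT-seq (10110 genes), given as a description since genes are not independent. Among the 20 genes named for the highest and lowest second-day folds, TT-seq estimates at 4 h ran from −0.54 to 0.66. Without the block 2 of the 20 passed, both lower at 4 h. These were Itpr2 (−0.54 ± 0.12, adjusted p = 0.0239), which rose on the second day, and Lama5 (−0.34 ± 0.08, adjusted p = 0.0336), which fell. Ccnb1ip1, Slc26a1 and Nectin2, which fell on the second day, had 0.66 ± 0.28, 0.60 ± 0.18 and 0.55 ± 0.18, and Itga2b and Car1 had 0.29 ± 0.12 and −0.17 ± 0.15. With the block 13 of the 20 passed, all 7 of these genes among them.

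The letters AANATGGCG, the core of the YY1 motif, were in the promoters of 6.8% of the 338 genes that rose and had a promoter, 6.23% of the 321 that fell and 6.4% of all 9432, searched on both strands. AGATAA was in 12.4% of promoters of genes that rose, 10.3% of those that fell and 8.44% of all. TTTNGCGC was in 2.66% of promoters of genes that rose and 5.3% of those that fell, against 3.04% of all. These shares are descriptions of a 300 base window and carry no test.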

How the data were processed

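RNA-seq was read from a table of the 12 time-course libraries. The authors deposited expected counts by gene symbol, already rounded to whole numbers; the submitters' processing notes name Salmon 0.13.1, DESeq2 and mouse build mm9, and no source used here gives the transcript set. For TT-seq the authors deposited counts by gene, and the submitters' processing notes name Trim Galore, STAR and SAMtools. Lines naming no gene were left out (17.2% to 22.2% of a TT-seq library without a feature, 0.391% to 0.529% ambiguous); TT-seq libraries held 30.2 to 53.5 M counts in genes, RNA-seq libraries 25.1 to 26.2 M.

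Counts were analysed with edgeR 4.0.16 in R 4.3.3 (TMM factors, filterByExpr by time, quasi-likelihood F-test, Benjamini-Hochberg over all genes tested, threshold 0.05). All 12 RNA libraries entered 1 fit, without a replicate term. The same steps recovered most known changes of 1 on the log2 scale in simulated counts, where 200 genes were changed. Recovery of smaller changes was not required, and deviations of single libraries beyond the fitted spread were not simulated. TT-seq libraries with the same number deviated together from their group means (r = 0.71, 0.77 and 0.51), so a blocked fit is given beside the unblocked one; this pairing comes from the data, not the labels. The 0 h and 4 h RNA libraries did so too (r = 0.34, 0.18 and 0.29), and the blocked fit for them was added after seeing the data.

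Named genes are Yy1, 10 genes with the highest and 10 with the lowest fold among calls with mean log2 CPM of at least 3 and no overlap between the groups (predicted, clone-named, RIKEN-named, pseudogene and mitochondrial symbols left out), and, for each list described, at most 4 members of smallest p; further list members and marker genes were named after their values were seen. The comparison and the 40 gene lists were chosen with earlier results of these data known, and histone symbols were updated by name. Alternatives were RLE size factors, other filters, the 24 and 48 h libraries alone, a replicate block, DESeq2 1.42.0, and leaving out each library. Promoters came from RefSeq (GRCm38.p6) and were matched by symbol for 9432 of 15157 tested genes. Some genes that the rule names are not reported here. ChIP-seq and Micro-C files were not used here.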

Additional observations from a re-analysis of the deposited data

How the results depend on the processing

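No called gene changed direction under any alternative, compared among the calls of both. The number that rose was 459 and that fell 430. DESeq2 gave 781 and 690, and the 24 and 48 h libraries alone gave 316 and 161, with 23 lower by more than 1 on the log2 scale. Without the filter on low counts 114 rose and 94 fell by more than 1, against 61 and 39, since more genes of low count were tested (30599). RLE size factors, the filter at 1 CPM and leaving out the 20 most abundant genes moved none of these 4 counts by over 1.5 times, though the filter at 1 CPM gave 8 lysosome calls against 5. Leaving out 1 library gave 213 to 352 higher, 164 to 375 lower, 31 to 74 higher by more than 1 and 25 to 41 lower by more than 1. The lowest numbers came without 24 h replicate 2 (213 and 182) and without 48 h replicate 1 (217 and 164), and fewer libraries were then fitted. Of 115 called genes, named by the rule or added after their values were seen, 55 kept their call without each library and in every other setting. The other 60 lost it without at least 1 library, 56 of them without 24 h replicate 2. In each case fewer libraries were fitted. On the 24 and 48 h libraries alone 44 of the 115 were lost. The replicate number was not taken as a pairing of 48 h with 24 h libraries. Libraries of 48 h and 24 h with the same number had correlated deviations of 0.16, 0.31 and −0.0019, and not every library correlated best with its own number (0.19 between 48 h replicate 1 and 24 h replicate 3). With the replicate block 652 genes rose and 615 fell, and no named call was lost. The RNA-seq libraries had close to the same depth, and genes of low count had the widest errors.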
